A study of Homo sapiens with 4 samples.

Results

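The alkaline phosphatase family was examined in paclitaxel-resistant anaplastic thyroid cancer (ATC) cells. Its 4 genes, ALPPL2, ALPP, ALPI and ALPL, were taken from the 26485 gene names of the deposited tables, and 2 of the 4 had an FPKM (a level scaled to transcript length and library depth) above 0.5 in at least 1 library. ALPPL2 was chosen by its increase, which was among the largest shared by both resistant lines, and the other 3 genes were added by family name. The fold changes of ALPPL2, and those of ALPP in the same comparisons, are therefore a description and were not tested.

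SW1736 and 8505C are established human ATC lines, and paclitaxel is a taxane that stabilizes microtubules. Paclitaxel-sensitive wild-type (wt) cells of each line gave the libraries SW1736 wt and 8505C wt. Resistant cells gave SW1736-PTX and 8505C-PTX, and had been derived from the wt lines under paclitaxel rising from 1 nM to 1.5 µM over 6 months and then kept in 1.5 µM of the drug. All 4 cultures grew in the same serum-supplemented medium, so that the PTX cultures differed from the wt cultures in selection, time in culture and the presence of the drug together, and these cannot be told apart. Only 1 mRNA library was sequenced per condition, which means that no difference could be set against the spread between cultures and no p-value was computed.

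Alkaline phosphatases are zinc-dependent enzymes that are held on the outer face of the cell membrane by a glycosylphosphatidylinositol (GPI) anchor and remove phosphate groups from their substrates at alkaline pH. In humans, ALPP encodes the placental enzyme (PLAP), ALPPL2 (current symbol ALPG) the closely related placental-like or germ cell enzyme, ALPI the intestinal enzyme, and ALPL the tissue-nonspecific enzyme of liver, bone and kidney, which cleaves pyrophosphate during bone mineralisation. The placental and germ cell enzymes are scarce in most normal adult tissues and are known as markers of germ cell tumours.

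In hg38, the deposited tables place ALPP at chr2:232378534-232382889, ALPPL2 at chr2:232406842-232410714 and ALPI at chr2:232456112-232460745, all on the plus strand, so that these 3 genes lie in tandem. The gap between ALPP and ALPPL2 is 23953 bases. ALPL lies apart from them, at chr1:21509365-21578412 on the plus strand. In GENCODE release 44, the main transcripts of ALPP, ALPPL2 and ALPI have 11 exons each and that of ALPL has 12.

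The tandem genes are near copies, and the stretch printed here shows where single-end reads of 75 bases cannot tell them apart. Over the aligned coding bases, ALPP and ALPPL2 were 97.8% identical (1561 of 1596), ALPP and ALPI 89.7%, and ALPP and ALPL 64.1%. The longest stretch within 1 coding exon that ALPP and ALPPL2 share without a difference has 192 bases and lies in exon 9 of both genes, at chr2:232380840-232381031 for ALPP and chr2:232408921-232409112 for ALPPL2. No read that falls within it can be assigned to either gene by its sequence:
ALPP and ALPPL2: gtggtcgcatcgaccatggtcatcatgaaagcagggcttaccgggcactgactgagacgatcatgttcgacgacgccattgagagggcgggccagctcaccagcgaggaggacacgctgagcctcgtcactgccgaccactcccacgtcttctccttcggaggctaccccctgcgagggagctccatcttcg

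Of the 2680 windows of 75 bases in the ALPP transcript, 499 (18.6%) occurred without a mismatch in ALPPL2, and the same 499 made up 20.6% of the 2418 windows of ALPPL2. With up to 2 mismatches allowed, the shares were 44.6% and 49.5%. All 499 lay within the coding sequence. After the stop codon, none of the 1023 windows of ALPP or the 771 of ALPPL2 had an exact match in the other copy, and the median distance was 29 and 24 mismatches. Only 1 window of ALPP was found exactly in ALPI, and no window of ALPL was found in another member. In addition, 292 windows of ALPP and 140 of ALPPL2 occurred exactly, read in either direction, in genes outside the family. These were an unnamed GENCODE gene for both copies and also MIR99AHG for ALPP. Windows found exactly in any other gene thus numbered 652 for ALPP and 499 for ALPPL2. Whether strand was used in the counting is not given in the sources used here. The levels of ALPP and ALPPL2 are for this reason uncertain as single values, because part of their reads could be split between the copies, whereas most of each transcript was distinct.

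**Figure D1:**
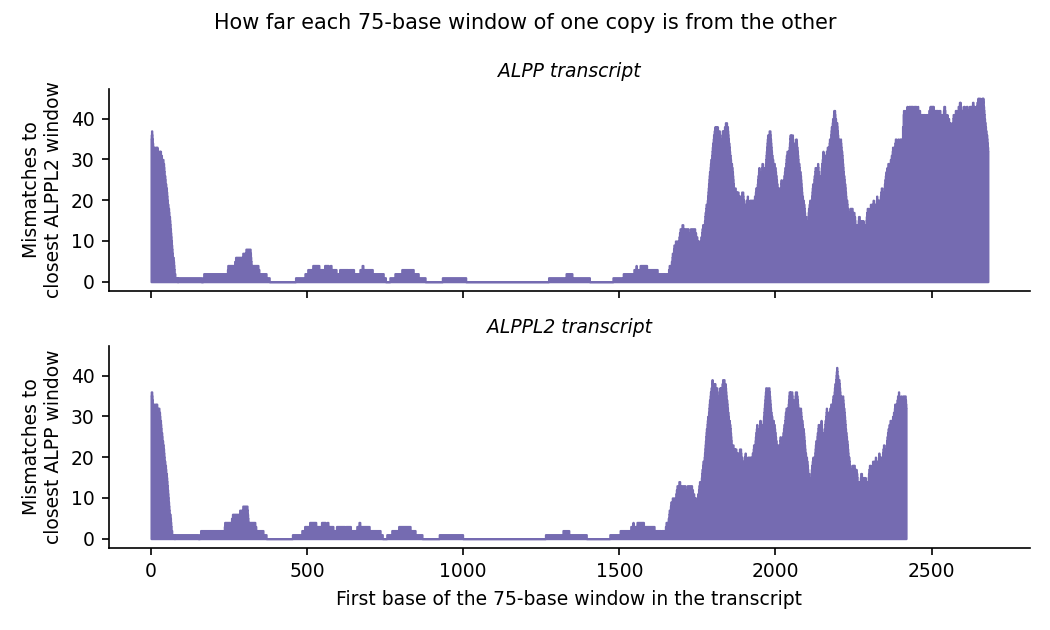
Number of mismatches (vertical axis) between each window of 75 bases of the ALPP (top) or ALPPL2 (bottom) transcript and the closest window of the other copy, by the window's first base (horizontal axis). Windows at 0, 499 in each transcript, cannot be assigned to 1 copy, and all lie in the coding part, whereas the windows after the stop codon are at least 3 mismatches away.

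The windows upstream of the 3 tandem genes are printed to show how alike the copies are there. ALPP and ALPPL2, the closest pair in coding sequence, were also the closest pair in these windows. A link between the windows and the levels was not tested. The windows hold the 250 bases before the transcription start given by RefSeq (GRCh38.p14, plus strand). They lie at chr2:232378501-232378750 for ALPP, chr2:232406594-232406843 for ALPPL2 and chr2:232455903-232456152 for ALPI. The deposited coordinates start ALPP earlier, at 232378534, so that most of its window lies within the gene as it was counted. The deposited starts of ALPPL2 (232406842) and ALPI (232456112) fall near the end of their windows. Capitals mark the longest run common to all 3, which has 15 bases and begins 36 bases before the start of ALPP and ALPPL2 and 34 before that of ALPI:
ALPP: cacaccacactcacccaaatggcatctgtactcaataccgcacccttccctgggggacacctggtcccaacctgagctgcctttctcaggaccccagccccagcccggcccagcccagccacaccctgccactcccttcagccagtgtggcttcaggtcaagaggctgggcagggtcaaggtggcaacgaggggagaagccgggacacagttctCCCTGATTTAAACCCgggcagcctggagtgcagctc
ALPPL2: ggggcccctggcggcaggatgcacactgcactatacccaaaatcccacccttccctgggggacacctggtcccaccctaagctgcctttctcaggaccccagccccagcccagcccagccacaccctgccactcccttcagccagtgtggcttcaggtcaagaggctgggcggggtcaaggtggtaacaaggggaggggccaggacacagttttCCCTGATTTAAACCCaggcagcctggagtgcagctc
ALPI: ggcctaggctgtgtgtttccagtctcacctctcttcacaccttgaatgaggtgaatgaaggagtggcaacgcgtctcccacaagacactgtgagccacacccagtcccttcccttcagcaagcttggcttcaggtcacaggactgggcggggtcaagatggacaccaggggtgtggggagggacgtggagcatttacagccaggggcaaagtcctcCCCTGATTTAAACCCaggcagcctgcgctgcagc

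The windows of ALPP and ALPPL2 matched at 212 of 229 aligned bases (92.6%) and shared a run of 64 bases, while that of ALPI matched ALPP at 68.4% and ALPPL2 at 68.3%. On both strands, the letters TTTAAA occurred once in each of the 3 windows, inside the common run, and in 11.3% of 35116 RefSeq windows of this length. The nuclear receptor motif AGGTCA also occurred once in each of the 3, against 12.1% of all windows. The SP1 motif GGGCGG and the AP-2 motif GCCNNNGGC each occurred once in ALPPL2 and ALPI and not in ALPP, against 42.6% and 19.8% of all windows. Neither TATAAA (10.7%) nor the AP-1 motif TGANTCA (6.57%) was found in any of the 3. These matches describe letters in a window only.

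Before the levels are given, the relation of the libraries has to be stated. Over 14692 genes above 0.5 FPKM in at least 1 library, Pearson's r of log2(FPKM + 0.1) between SW1736-PTX and 8505C wt was 0.873, higher than the 0.767 between SW1736-PTX and SW1736 wt, and 8505C-PTX had an r of 0.877 with 8505C wt. The highest r of all pairs was the 0.933 between the PTX libraries, and the wt libraries had 0.845. The thyroid factor NKX2-1 was listed at 0 in SW1736 wt and was at 36.3 FPKM in SW1736-PTX and 30.5 in 8505C wt, whereas PAX8, another thyroid factor, was at 38.2, 0.206 and 0.123 FPKM in the same libraries. Of 148 genes above 5 FPKM in 8505C wt and below 0.5 in SW1736 wt, 132 (89.2%) were above 1 FPKM in SW1736-PTX, compared with 40 of the 145 genes (27.6%) with the opposite pattern. In 8505C-PTX the shares were 92.6% and 21.4%. The library labelled SW1736-PTX thus resembled both 8505C libraries more than SW1736 wt. Whether it derives from SW1736 was not tested, and every change given for SW1736, as well as every count over both lines, rests on that label. The members and the gene lists were therefore also compared between SW1736-PTX and 8505C wt, and the part of this resemblance in the results was not tested. Of 13 measured thyroid markers, 5 were above 0.5 FPKM in at least 1 library, namely NKX2-1, PAX8, FOXE1, DIO2 and HHEX. HHEX had between 5.92 and 14.4 FPKM in the 4 libraries, and FOXE1 and DIO2 were highest in SW1736 wt (26.6 and 3.34). Another 4 markers, TSHR and SLC5A5 among them, were listed at 0 in all 4 libraries, and TG did not exceed 0.00586 FPKM. CDH5, an endothelial cadherin, was at 55.9 FPKM in 8505C wt and at most at 4.53 in the others, while PECAM1 and VWF did not exceed 0.281. Between 43.5 and 57.9 M reads were estimated per library, with more in each PTX library than in its wt library.

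ALPPL2 was hardly detected in wt cells and was well expressed in both resistant lines. The PTX libraries had 37.5 (SW1736) and 36.6 FPKM (8505C), whereas 8505C wt had 0.120 and SW1736 wt was listed at 0. From the deposited coverage, these levels correspond to about 5414 reads in SW1736-PTX (95% exact Poisson interval 5271 to 5560), 13 in 8505C wt (6.92 to 22.2) and 4891 in 8505C-PTX (4755 to 5030). In SW1736 wt, 3 reads on this transcript would give 0.0246 FPKM. Such intervals and limits cover counting error only. Neither wt library came near either PTX library. In bulk RNA, more cells with the transcript and more transcript per cell cannot be told apart.

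ALPP followed the same order of libraries at a higher level per length. The PTX libraries had 81.6 (SW1736) and 77.9 FPKM (8505C), whereas 8505C wt had 0.637 and SW1736 wt was listed at 0. The estimated reads were 13017 in SW1736-PTX, 11496 in 8505C-PTX and 76 in 8505C wt. In SW1736-PTX, ALPP ranked 810 of the 13430 names above 0.5 FPKM, and ALPPL2 ranked 1968. In 8505C-PTX the ranks were 818 and 1969 of 13420. ALPP was thus among the most abundant 6.09% of expressed genes of either resistant line and ALPPL2 among the most abundant 14.7%. In 8505C wt, the rank of ALPP was 12070 of 12393.

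ALPI and ALPL were listed at 0 in all 4 libraries, as were 6905 of all 26485 gene names. At the depth of these libraries, 3 reads would give between 0.0160 and 0.0213 FPKM for ALPI and between 0.0204 and 0.0272 for ALPL. The 3 reads are a chosen setting rather than a detection limit, and a listed 0 does not exclude a lower level. Of 195 names of ribosomal, proteasome, polymerase, initiation factor and splicing factor genes, 4 or 5 were listed at 0 in each library, all of them tissue-restricted relatives such as RPL3L and PSMA8. Thus neither the intestinal enzyme, whose gene lies next to ALPPL2, nor the tissue-nonspecific enzyme had any listed expression.

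**Figure D2:**
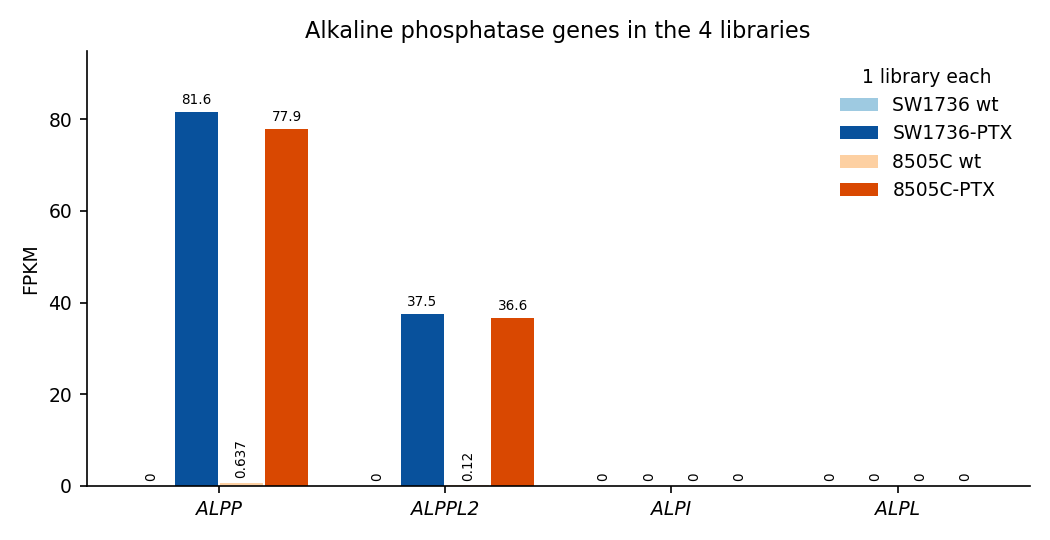
FPKM (vertical axis) of the 4 alkaline phosphatase genes in SW1736 wt, SW1736-PTX, 8505C wt and 8505C-PTX, with 1 library per bar and no error bars because there are no replicates. ALPP and ALPPL2 are high in both PTX libraries and at or below 0.637 FPKM in both wt libraries, whereas ALPI and ALPL are listed at 0 throughout.

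Changes were expressed as log2((PTX + 0.1)/(wt + 0.1)) of FPKM, which understates the change of low genes, and genes with an FPKM over 0.5 on either side of a pair were called if they moved beyond 1.5 on this scale. ALPPL2 changed by 8.56 in SW1736 and by 7.39 in 8505C, and ALPP by 9.67 and 6.73. Both genes were called up-regulated in both lines, while ALPI and ALPL could not be compared. Of all genes compared, 15.7% were called up-regulated in SW1736, 15.0% in 8505C and 7.37% in both, and 2.41% were called down-regulated in both. Since ALPPL2 was picked for this contrast, nothing is read from its count against that background. In 8505C, ALPPL2 was 306-fold higher in PTX cells (interval from the estimated reads 179 to 575) and ALPP 122-fold higher (98.1 to 156). For SW1736 no fold is given, as both genes were listed at 0 in the wt library. When SW1736-PTX was set against 8505C wt, the log2 changes were 7.42 for ALPPL2 and 6.79 for ALPP, where 15.1% of genes compared were called up-regulated.

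Ranked by the smaller of the changes in both lines, ALPPL2 was number 3 and ALPP number 6 of 13304 genes compared in both. Just above ALPPL2 was WFDC21P, with a smaller change of 8.37, and just below it WISP2, with 6.95. Next to ALPP were KIAA1324L, with 6.73 to 2 decimals like ALPP, and MMP28, with 6.16. Within single lines, ALPP ranked 5 in SW1736 and 11 in 8505C, and ALPPL2 24 and 6.

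The PTX libraries, which were each other's nearest over all genes (r of 0.933), were also close in both copies. ALPP was 1.05-fold higher in SW1736-PTX than in 8505C-PTX (interval 1.02 to 1.07) and ALPPL2 1.02-fold higher (0.985 to 1.06), although variation between cultures is unknown. Between the wt libraries, ALPP at 0.637 FPKM in 8505C and listed at 0 in SW1736 gave a log2 difference of 2.88, and ALPPL2 was too low to compare. The order of the levels was therefore both PTX libraries first, then 8505C wt and then SW1736 wt. The intervals cover counting error only and take the division of reads between the copies as given, so that no order of the PTX libraries is read from them.

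The balance between the copies was also close in the PTX libraries. ALPP was 2.18 times ALPPL2 per length in SW1736-PTX (2.11 to 2.25) and 2.13 times in 8505C-PTX (2.06 to 2.20). In 8505C wt, where both genes were low, the ratio was 5.32 with a wide interval of 2.92 to 10.4. This value rests on about 13 and 76 reads, whose assignment to the copies is uncertain, and no difference from the PTX libraries is read from it. Together the copies reached 119 FPKM in SW1736-PTX, 115 in 8505C-PTX and 0.756 in 8505C wt.

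The genes whose pattern over the 4 libraries was closest to ALPPL2 were found by the Euclidean distance of log2(FPKM + 0.1), centred per gene, among 14691 other genes. This is a description over 4 libraries. PIEZO2, a mechanosensitive channel, was nearest with a distance of 1.03, followed by WFDC21P (1.20), ALPP (1.26), WISP2 (1.27) and COL3A1 (1.36), a fibrillar collagen, while the median gene was 7.99 away. For ALPP, the nearest were PIEZO2 (1.20), COL3A1 (1.22), ALPPL2 (1.26), SNCG (1.80) and HLA-F (1.80). The copies were thus each at rank 3 of the other's nearest genes, and PIEZO2 came before the other copy in both cases. PIEZO2 had 0.00281 (wt) and 30.4 FPKM (PTX) in SW1736 and 0.320 and 29.0 in 8505C.

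**Figure D3:**
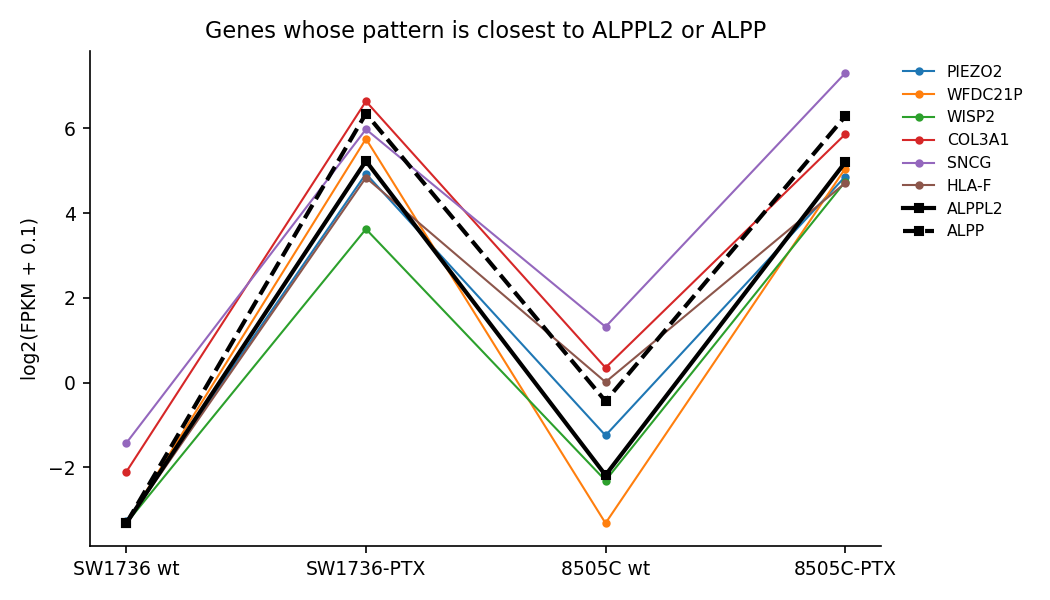
log2(FPKM + 0.1) (vertical axis) of ALPPL2 (solid black), ALPP (dashed black) and the 6 other genes closest to either in pattern, in the 4 libraries (horizontal axis, 1 library each; lines only join the points of a gene). Each gene is high in both PTX libraries and lower in both wt libraries, and in 8505C wt all but WISP2 and WFDC21P lie above ALPPL2.

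The genes around the tandem copies are described next. Within 1 Mb of ALPPL2, 26 gene names were listed besides the members and small RNAs, of which 16 were above 0.5 FPKM in at least 1 library. Their median change was 0.02 in SW1736 and 0.16 in 8505C, and the calls numbered 4 up and 1 down of 16 in SW1736 and 4 up and 0 down of 13 in 8505C. Over all genes compared the medians were 0.01 and 0.11. Of these, 15.7% in SW1736 and 15.0% in 8505C were called up-regulated, and 10.2% and 5.89% down-regulated. The nearest expressed genes outside the cluster were DIS3L2, an RNA exonuclease, with changes of -0.01 and 0.30, and TIGD1, with -0.56 and 0.51. ECEL1P2, a pseudogene that lies between ALPP and ALPPL2 on the other strand, was listed at 0 in both wt libraries and was at 0.706 FPKM in SW1736-PTX and 0.0905 in 8505C-PTX. C2orf82 (3.96 and 2.13) and NGEF (3.80 and 4.36), a guanine nucleotide exchange factor, were called up-regulated in both lines, at distances of 459570 and 467972 bases. No neighbour reached the change of either alkaline phosphatase gene in any line, the highest being 4.55 for EFHD1 in 8505C. Since ALPPL2 was chosen for its large increase, smaller changes around it follow from that choice, and nothing is read from them.

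**Figure D4:**
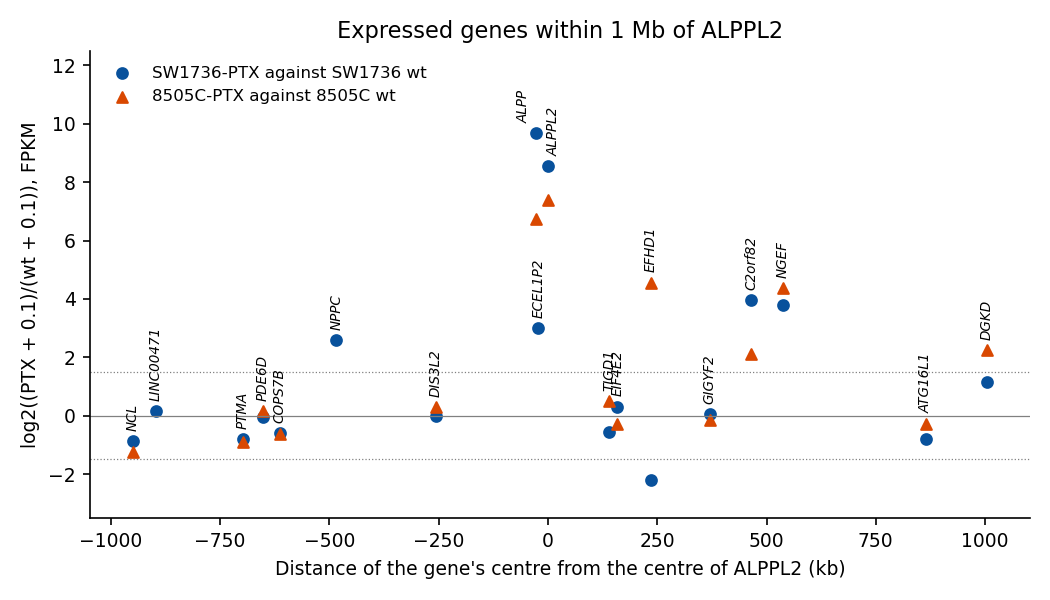
log2 change (vertical axis, FPKM with 0.1 added) of genes above 0.5 FPKM within 1 Mb of ALPPL2, by the distance of their centres from its centre (horizontal axis, kb), for SW1736 (circles) and 8505C (triangles); dotted lines mark the call limit of 1.5. ALPP and ALPPL2 stand between 6.73 and 9.67, and the flanking genes DIS3L2 and TIGD1 stand between -0.56 and 0.51.

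Around ALPL, 17 of 24 names were above 0.5 FPKM, with medians of 0.05 in SW1736 and 0.24 in 8505C. In SW1736, 2 of 17 were called up-regulated and 3 down-regulated, and in 8505C 2 of 15 and 1. The shares over all genes compared were 15.7% up and 10.2% down in SW1736, and 15.0% and 5.89% in 8505C. NBPF3, 24465 bases from ALPL, had changes of 0.61 and 0.82, and RAP1GAP, a GTPase activator 17803 bases away on the other side, was called up-regulated in SW1736 (3.32) at 1.05 FPKM in the PTX library and stayed below 0.5 FPKM in both 8505C libraries. USP48, a ubiquitin protease beyond it, had 0.09 and -0.22 and lay between 17.0 and 19.9 FPKM in the 4 libraries. Genes near ALPL were therefore expressed, whereas ALPL itself was listed at 0.

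Alkaline phosphatases act with genes that load their zinc, build their anchor and handle their substrates. SLC30A5, SLC30A6 and SLC30A7 encode the transporters that bring zinc to these enzymes in the secretory pathway. SLC30A5 had 19.2 (wt) and 21.5 FPKM (PTX) in SW1736 and 21.6 and 22.6 in 8505C, and the changes of the 3 genes lay between -0.47 and 0.16, so none was called. Of 18 zinc transporters compared in each line, 3 were called up-regulated in SW1736 and 1 in 8505C, and none was called down-regulated. SLC30A3 was called in both (4.58 and 2.21), at only 2.30 FPKM in SW1736-PTX and 0.560 in 8505C-PTX. The medians were 0.55 and 0.08. Against 8505C wt, 1 of 18 was called up-regulated in SW1736-PTX, with a median of 0.09. For this and the following lists, the shares over all genes compared were 15.7% up and 10.2% down in SW1736. In 8505C they were 15.0% and 5.89%. Against 8505C wt, 15.1% of all genes compared were called up-regulated in SW1736-PTX and 723 of 13824 down-regulated, with a median of 0.10.

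All 31 measured genes of GPI anchor synthesis, transfer and remodelling were expressed. The calls were 3 up and 1 down per line, with median changes of 0.16 in SW1736 and 0.37 in 8505C, and against 8505C wt SW1736-PTX had 4 up and 1 down, with a median of 0.28. PGAP3, which remodels the lipid of the anchor, was called up-regulated in both lines (1.59 and 2.04), as was GPLD1 (3.40 and 2.21), a phospholipase that cleaves GPI anchors. GPLD1 was low, at 0.954 FPKM in SW1736-PTX and 1.21 in 8505C-PTX. PIGW, which acylates the anchor's inositol, was called down-regulated in both (-1.55 and -2.12). Among the transamidase subunits, which attach the anchor to the protein, PIGK, PIGS, PIGT, PIGU and GPAA1 changed by less than the limit in both lines.

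Other GPI-anchored proteins were a mixed group. Of the 75 measured, 43 were compared in SW1736, with 18 called up-regulated and 7 down-regulated, and 41 in 8505C, with 13 and 4, and the medians were 1.00 and 0.91. Against 8505C wt, SW1736-PTX had 14 up-regulated and 5 down-regulated of 44, with a median of 0.77. CD55, a complement inhibitor, had 23.9 (wt) and 136 FPKM (PTX) in SW1736 and 37.2 and 108 in 8505C. EFNA1, an ephrin ligand (3.95 and 1.97), EFNA2, GPC4, FOLR1 and CPM were also called up-regulated in both lines. EFNA2, GPC4, FOLR1 and CPM were low, with at most 4.90 FPKM in SW1736-PTX and 2.60 in 8505C-PTX. NTM (-5.58 and -4.90) and SEMA7A (-2.57 and -1.63) were called down-regulated in both lines. CD55 was the only 1 of these shared increases that reached the FPKM of ALPP in both PTX libraries.

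Genes that handle the substrates of the family came next. Of the phosphate and pyrophosphate genes, 10 were compared in SW1736 and 11 in 8505C, and 3 were called up-regulated in each line and none down-regulated. No gene of this list was called up-regulated in both lines, against 7.37% of all genes, which over so few genes is less than 1. The medians were 0.95 and 0.40. Against 8505C wt, SW1736-PTX had 1 up and 1 down of 10, with a median of -0.23. ENPP1, which makes extracellular pyrophosphate, had changes of 1.68 and 0.40, and ANKH, which exports its precursor, 1.10 and 1.87. In the adenosine list, the calls numbered 2 up and 1 down of 9 in SW1736, and 3 up and 0 down of 8 in 8505C, with medians of 0.02 and 0.62, and against 8505C wt 3 up and 0 down of 9 (median 1.17). ADA, which deaminates adenosine, was called up-regulated in both lines (3.34 and 2.01), as was the transporter SLC29A2 (1.98 and 2.32). NT5E, a GPI-anchored enzyme that like alkaline phosphatases can form adenosine outside the cell, had 26.8 (wt) and 37.3 FPKM (PTX) in SW1736 and 90.2 and 49.3 in 8505C, and was not called. No acid phosphatase (3 compared) or vitamin B6 gene (4 compared) was called in either line or against 8505C wt, and their medians in SW1736 and 8505C were -0.17 and 0.62 and -0.21 and -0.30.

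**Figure D5:**
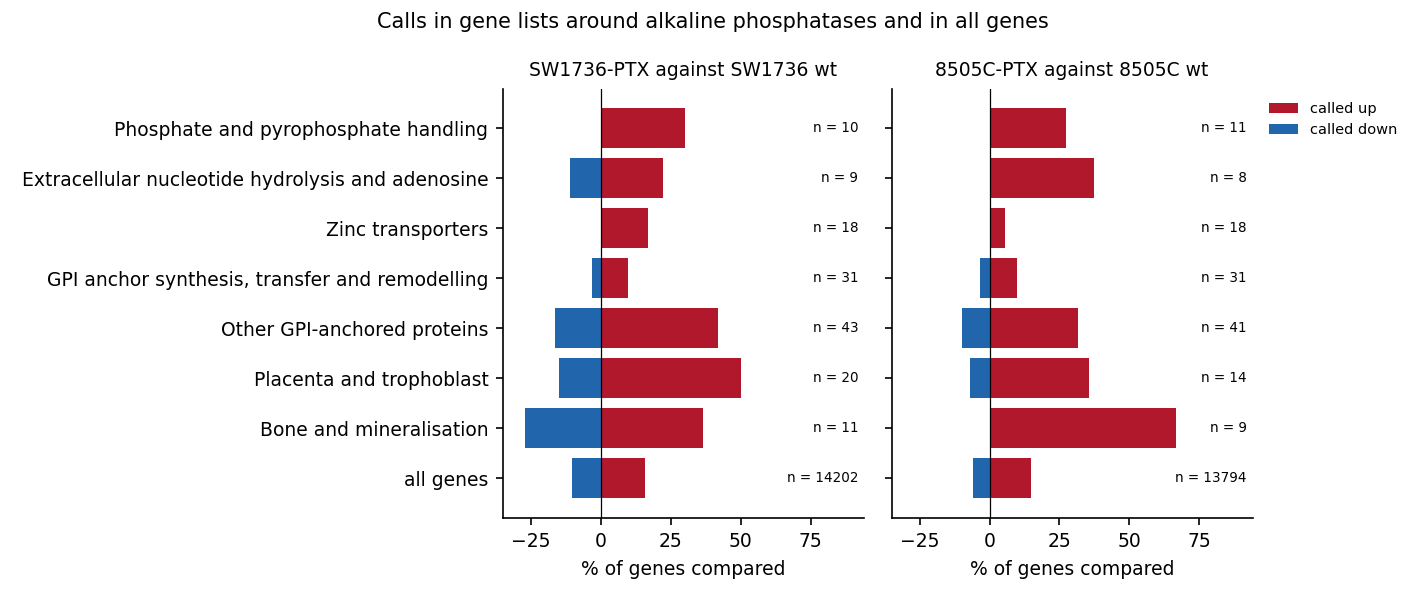
Percentage of compared genes called up-regulated (right of 0) and down-regulated (left of 0) in lists around alkaline phosphatases, with the number compared at the right, for SW1736 (left panel) and 8505C (right panel). All genes compared are in the bottom row (15.7% and 15.0% up-regulated). Counts per list are small, and no list was tested.

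The tissues that normally express the members were then compared by their marker genes. Of 45 measured placenta and trophoblast genes, 12 were listed at 0 in all 4 libraries and 20 were above 0.5 FPKM in at least 1. In SW1736, 10 of 20 were called up-regulated and 3 down-regulated, in 8505C 5 of 14 and 1, and in SW1736-PTX against 8505C wt 6 of 17 and 0. The medians were 1.25 and -0.16 in the SW1736 and 8505C pairs and 1.38 in the last. PLAC8 had 6.47 (wt) and 123 FPKM (PTX) in SW1736 and 10.8 and 189 in 8505C, and PAPPA, a metalloproteinase of the placenta (6.48 and 1.83), and HLA-G (5.14 and 1.60) were also called up-regulated in both lines. CGA, the alpha subunit of chorionic gonadotropin, had a listed 0 (wt) and 10.7 FPKM (PTX) in SW1736 and 11.0 and 8.09 in 8505C, so that it did not follow ALPP. Among 19 germ cell and pluripotency genes, 12 were listed at 0 throughout, NANOG among them, and POU5F1 did not exceed 0.464 FPKM. Only 2 could be compared, SOX2 and TFAP2C. SOX2 was called up-regulated in both lines at a low level, from a listed 0 (wt) to 0.762 FPKM (PTX) in SW1736 and 1.32 in 8505C. TFAP2C, a factor of trophoblast and germ cells, had 10.5 (wt) and 15.6 FPKM (PTX) in SW1736 and 1.08 and 13.4 in 8505C, with a call in 8505C only. Against 8505C wt, both genes were called up-regulated in SW1736-PTX.

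The tissues of ALPI and ALPL were examined in the same way. Of 21 intestinal genes, 12 were listed at 0 in all 4 libraries, including VIL1, CDX2, SI and FABP2, and among 3 compared per line SW1736 had 2 up and 1 down call and 8505C had none, with medians of 1.87 and 0.36. Against 8505C wt, 1 of 2 was called up-regulated. Of 22 bone and mineralisation genes, 12 were above 0.5 FPKM in at least 1 library. In SW1736, 4 of 11 were called up-regulated and 3 down-regulated, and in 8505C 6 of 9 and 0, with medians of 0.86 and 2.07, and against 8505C wt 6 of 11 and 0 (median 1.88). SP7, BGLAP and IBSP did not exceed 0.279 FPKM in any library, whereas SPARC, ATF4 and BMP4 had at least 19.4 FPKM in each. COL1A1 and COL1A2 had 153 and 104 FPKM in SW1736 wt. With RUNX2, they were the genes called down-regulated in SW1736 (-6.07, -5.88 and -1.79). MGP, an inhibitor of calcification, was called up-regulated in both lines (4.25 and 7.49), as was TNFRSF11B (2.03 and 4.72), a decoy receptor that restrains osteoclasts. The leukocyte markers summed to at most 0.0465 FPKM in any library. The part of other cell types in the values of ALPP and ALPPL2 was not tested.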

How the data were processed

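Per the methods of the study and the labels, the authors sequenced single-end reads of 75 bp, used Cutadapt for adapters and ERNE for bases of low quality, mapped to hg38 by STAR, and estimated abundance per gene by StringTie. The annotation, the treatment of reads with several positions and the versions of STAR, ERNE and StringTie are not given in the sources used here. The deposited tables give the read coverage per base (a signal not normalized for depth), and the authors' FPKM and TPM values from StringTie. Read counts are not among these columns, and count models were therefore not applied.

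From the deposited FPKM, rows of 1 gene name were summed, 0.1 was added and log2 differences were taken. Genes above 0.5 FPKM in at least 1 library of a pair were compared, and a difference beyond 1.5 was called, after the study's limits. Reads were estimated as coverage times the length of the main GENCODE release 44 transcript divided by 75. The highest ratio of coverage to FPKM gave the depth of each library. Intervals (95%) are exact Poisson for reads and Clopper-Pearson for ratios, and cover counting error only. ALPPL2 was matched to ALPG in GENCODE and RefSeq, and all 4 genes matched. Upstream sequences came from the RefSeq promoter table. Coding and upstream sequences were aligned globally with Biopython 1.88, and identity was taken over aligned bases without gaps. The calls were tested on simulated data. The simulation held counting error only, and only genes with higher wt levels than ALPP and ALPPL2, so it does not bear on their calls. Python 3.11.15, pandas 2.3.3, NumPy 2.4.6, SciPy 1.17.1 and matplotlib 3.10.9 were used.

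The members and the gene lists were chosen with earlier results of these data known. Named genes were the members, the 5 genes nearest in pattern to each, genes within 1 Mb of ALPPL2 or ALPL, and genes of the lists that were called alike in both lines or describe the list. Small RNAs under 300 bases were left out of the neighbours, a choice made after their values were seen. The comparison of the lists with 8505C wt and the thresholds of line-specific genes were also chosen after the data were seen. Alternatives changed the pseudocount, the unit, the centring, the rows, the filter, the limit and the wt library.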

Additional observations from a re-analysis of the deposited data

Results flagged for a closer look

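Among the genes of the lists and the neighbours, 9 were called in opposite directions in the lines, as were 144 of the 13304 genes compared in both. How many of the listed genes and neighbours were compared in both lines was not counted, so nothing is read from the 9 against that background. With 1 library per condition, the difference between the lines was not tested for any of the 9. Their SW1736 changes also rest on the label of SW1736-PTX, a library that resembled both 8505C libraries more than SW1736 wt. None of the 9 was an alkaline phosphatase gene. EFHD1, which lies 195343 bases from ALPPL2, changed by -2.19 in SW1736 and 4.55 in 8505C, a difference of 6.75 (8505C minus SW1736). HSPG2, near ALPL, changed by -1.84 and 2.53, a difference of 4.37. Of the bone genes, COL1A1 changed by -6.07 and 1.94, a difference of 8.01, and RUNX2 by -1.79 and 2.07, a difference of 3.85. Of the trophoblast genes, GATA3 changed by -2.29 and 4.33, a difference of 6.62, and KISS1 by 9.01 and -2.41, a difference of -11.42. Of the GPI-anchored proteins, LYPD1 changed by -1.68 and 2.36, a difference of 4.03, and PSCA by 2.05 and -2.70, a difference of -4.74. The adenosine receptor gene ADORA1 changed by -1.89 and 4.07, a difference of 5.96. Several of these genes had close levels in SW1736-PTX and 8505C-PTX. EFHD1 had 2.34 and 2.82 FPKM there, GATA3 2.31 and 3.88, RUNX2 1.70 and 1.95, and PSCA 2.66 and 2.26. In SW1736 wt and 8505C wt, EFHD1 had 11.0 and 0.0243 FPKM, and PSCA 0.568 and 15.2. The PTX libraries were further apart for HSPG2 (2.04 and 32.8), KISS1 (227 and 68.8) and LYPD1 (5.39 and 15.8).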

How the results depend on the processing

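The change of ALPPL2 was positive in each alternative that gave a value for it, but the size of the change depended on the pseudocount, since the gene was at or near 0 in wt cells. With a pseudocount of 0.01, the log2 change of ALPPL2 was 11.87 in SW1736 and 8.14 in 8505C, and with 1 it was 5.27 and 5.07. With TPM in place of FPKM it was 9.69 in SW1736. With the wt library of the other line as reference, it was 7.42 in SW1736-PTX and 8.52 in 8505C-PTX. With a minimum of 0.5 FPKM on both sides of a pair, which removes genes listed at 0 in wt cells, the number of members called up-regulated fell from 2 to 0 in SW1736 and from 2 to 1 in 8505C. It was 2 in both lines under the other alternatives. Against 8505C wt, a comparison chosen after seeing the data, fewer genes were called up-regulated in SW1736-PTX for zinc transporters and phosphate genes (1 in place of 3 each), placenta genes (6 in place of 10) and intestinal genes (1 in place of 2), and more for germ cell and thyroid genes (2 in place of 1 each) and bone genes (6 in place of 4). The numbers compared differed too, with 17 in place of 20 placenta genes and 2 in place of 3 intestinal genes. No paired analysis was run over replicate numbers, since each condition had 1 library, and the lines were not used as replicate pairs. No library could be left out of a condition. Depth limits the 8505C wt values, which rest on about 13 reads for ALPPL2 and 76 for ALPP, and the effect of reads shared between the copies was not tested.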
